A study of Mus musculus with 185 samples.

Results

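The cells compared were 43 of the 185 single cells of the series, all from infarcted mouse hearts and none labelled as lineage-traced. They were selected on their Pdgfra value. A cell was called Pdgfra-detected when Pdgfra exceeded 5 TPM (TPM being transcript abundance relative to all transcripts of the cell, and the limit a log2 (TPM+1) value of 2.58) and Pdgfra-undetected otherwise. In the first set, 19 periostin-positive cells came from a capture whose other 44 cells were Tcf21 lineage-traced (the Tcf21 capture), and 9 of the 19 were Pdgfra-undetected (47.4%, exact 95% Clopper-Pearson interval 24.4% to 71.1%). The other set came from a capture of 32 cells dominated by untraced cells of the scar (the scar capture), where 10 of 24 cells were Pdgfra-undetected (41.7%, interval 22.1% to 63.4%). The intervals cover counting error only. The scar capture held 29 untraced scar cells, of which 5 had fewer than 300 genes above 5 TPM and were not compared, and 3 periostin-positive cells with a label of their own, which were not compared either.

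The study traced which resident cells become myofibroblasts after myocardial infarction (MI). All cells came from C57BL/6 mice (backcross N=6) of approximately 5 months, with MI made by permanent ligation of the left coronary artery, and were sorted as CD31- and CD45- before capture on the Fluidigm C1 system. In the tracing mice a tamoxifen-inducible Cre (MerCreMer) stood in the Tcf21 locus (Tcf21 MCM/+; R26-eGFP) or in the Postn locus (Postn MCM/+; R26-eGFP), tamoxifen was given in the chow, and a captured cell with eGFP was called traced. The untraced cells were eGFP-negative, and incomplete recombination leaves some cells of the lineage without eGFP. The paper dates infarct cells to a week after MI, and the labels give neither the genotype of the hearts behind the scar capture nor the mouse of any cell. Each class of cells in a capture therefore counted as 1 sample, differences are given as values without a test, and cells are not replicates. Each cell was a library of its own, so no cell barcodes are shared between libraries, and no doublet caller was run.

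Pdgfra encodes the alpha receptor for platelet-derived growth factor, and its expression is widely used to mark fibroblasts of the heart. Pericytes and smooth muscle cells carry the beta receptor, encoded by Pdgfrb, and usually lack the alpha receptor. After MI, resident fibroblasts proliferate, take on contractile and matrix-producing features as myofibroblasts, and secrete periostin. The question was what the untraced cells without detectable Pdgfra were: fibroblasts with few transcripts captured, fibroblasts in another state, or cells of another type.

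Pdgfra values ran without a wide gap across the limit. In the Tcf21 capture the highest Pdgfra-undetected cell (cell 35) had 2.99 TPM and the lowest Pdgfra-detected cell (cell 28) had 5.37 TPM. The same values of the scar capture were 4.78 TPM (cell 64) and 9.14 TPM (cell 88). Pdgfra was listed at 0 in 4 of the 9 undetected cells of the Tcf21 capture and in 6 of the 10 of the scar capture. Detected cells had a median log2 value of 4.99 (highest 8.66) in the Tcf21 capture and 6.75 (highest 8.23) in the scar capture. Pdgfra chose the groups and was left out of every list and count that follows.

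At the 5 TPM limit fewer genes were found in Pdgfra-undetected cells. The deposited values keep no read depth per cell, so the number of genes above 5 TPM stood in for it. In the Tcf21 capture the undetected cells had 1746 to 4436 genes (median 3299) and the detected cells 2645 to 4630 (median 3734), a difference of medians of -434. Scar cells had 1560 to 3922 (median 2584) and 2558 to 4393 (median 3334) genes, a difference of -749.5. The groups overlapped in both captures, but 3 of the 9 and 5 of the 10 undetected cells lay below every detected cell. The difference of the Tcf21 capture was not stable: it was -145 without cell 60 (4485 genes), -724 without cell 28 (3050 genes), and 8.5 with Pdgfra called detected above 1 TPM, where that of the scar capture was -993. All 5 of the scar cells left out for having under 300 genes were also without Pdgfra, which would make 15 undetected cells in that capture. Over all compared cells Spearman's rho between Pdgfra and genes per cell was 0.33 (n = 19 cells) and 0.48 (n = 24 cells). These are descriptions across cells that share a capture. How far depth set the Pdgfra call was not tested.

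**Figure D1:**
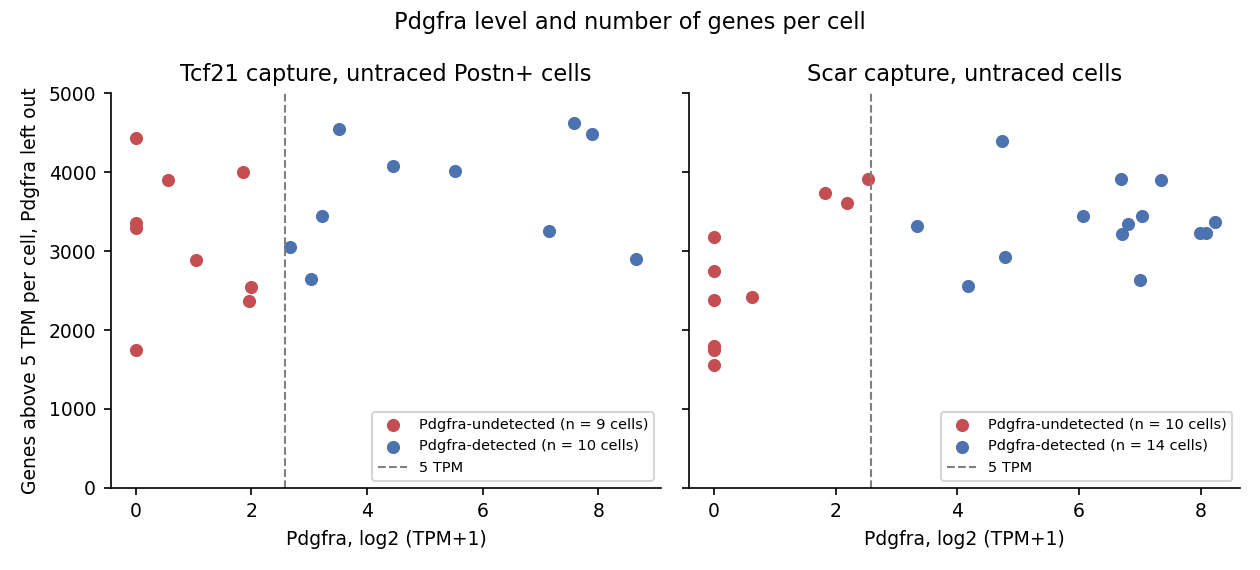
Pdgfra as log2 (TPM+1) against the number of genes above 5 TPM (Pdgfra left out) in each compared cell of the 2 captures, with the 5 TPM limit as a dashed line. The cells with the fewest genes, down to 1746 and 1560, are Pdgfra-undetected, while other undetected cells reach 4436 and 3922.

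All compared cells had fibroblast transcripts. Each of the 19 undetected cells had at least 3 of 8 fibroblast markers above 5 TPM (100%, interval 82.4% to 100%), with 5 to 8 markers per cell, and so did each of the 24 detected cells (interval 85.8% to 100%). Col1a2, a chain of type I collagen, was above 5 TPM in all 43 cells, with 10.21 to 13.05 (median 11.83, log2) in the undetected and 10.16 or higher (median 11.65) in the detected cells of the Tcf21 capture. Its values in scar cells were 9.61 to 12.53 (median 11.67) and 8.67 to 12.22 (median 10.57). Dcn, the collagen-binding proteoglycan decorin, was likewise above 5 TPM in all 43 cells. Col1a1 and Col3a1 were so too, which alone passed every cell, cell 74 with its pericyte markers included. The count therefore shows fibroblast transcripts in both groups, as the label says, and does not by itself tell cell types apart.

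By the median over its genes the fibroblast list differed little from the other genes. This median difference (undetected minus detected, in mean log2 (TPM+1)) was -0.48 in the Tcf21 capture, where all genes tested had a median of -0.43, and -0.54 in the scar capture, against -0.67. The mean of the list per cell was lower in undetected cells, at 7.53 to 8.88 (median 8.13) against 7.56 or higher (median 9.23) in the Tcf21 capture, where 0 of 9 undetected cells exceeded the detected median, and 6.15 to 10.34 (median 8.21) against 6.70 to 9.91 (median 8.97) in the scar capture. With medians over cells in place of means the list had -0.98 and -0.38, and all genes 0.00. Undetected cells of the Tcf21 capture had 6 of the 8 genes lower and those of the scar capture 4 of 8. Tcf21, a transcription factor of resident cardiac fibroblasts, was the gene of the list with the largest difference in the Tcf21 capture, with 1 of 9 undetected cells above 5 TPM (highest 4.04) and 5 of 10 detected cells (median 3.20, highest 9.20), a difference of -3.69. That was not shared by the scar capture, where 3 of 10 and 2 of 14 cells had Tcf21 and the difference was 0.60. Dpt, the matrix protein dermatopontin, had the largest in the scar capture, at -3.56, with 0.00 to 11.40 (median 6.85) in undetected and 3.95 to 11.32 (median 10.18) in detected cells.

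Periostin was present in every compared Pdgfra-undetected cell. The cells of the Tcf21 capture were chosen as periostin-positive, so only the scar capture could differ in this. Postn was 10.68 to 13.39 (median 11.45) in the 9 undetected cells of the Tcf21 capture and 4.55 to 13.72 (median 11.16) in the 10 of the scar capture. The 4 compared cells without Postn above 5 TPM (cells 67, 75, 76 and 85 of the scar capture, 0.00 to 1.69) were all Pdgfra-detected. All 10 compared scar cells without Pdgfra and 10 of the 14 with it thus carried the transcript that the study used to define the myofibroblast. Of the 5 scar cells under 300 genes, 4 had Postn above 5 TPM, and cell 92 had neither Postn nor Pdgfra.

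Few undetected cells reached 3 markers of another cell type. At least 3 markers of a non-fibroblast list were above 5 TPM in 3 of 19 undetected cells (15.8%, interval 3.38% to 39.6%) and in 7 of 24 detected cells (29.2%, interval 12.6% to 51.1%). By capture these were 1 of 9 (11.1%) and 4 of 10 (40%) in the Tcf21 capture, and 2 of 10 (20%) and 3 of 14 (21.4%) in the scar capture. With cell 17 left out the first count was 0, and with cell 73 or cell 74 left out the count of the scar capture was 1. All of these cells kept at least 5 fibroblast markers.

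Cell 74 of the scar capture stood apart from the other undetected cells. It had 6 of 8 pericyte markers above 5 TPM, with Rgs5, a regulator of G protein signalling that marks pericytes, at 3782 TPM, Vtn (vitronectin) at 1756 TPM and the potassium channel genes Kcnj8 and Abcc9 at 424 and 34 TPM. Higd1b had 40.6 TPM and Rgs4 6.66 TPM, while Notch3 (2.79 TPM) and Cspg4 (0 TPM) were not above the limit. It also had 5 of 8 smooth muscle markers, namely Acta2 (708 TPM), Actg2 (561 TPM), Des (239 TPM), Tagln (66.4 TPM) and the smooth muscle myosin gene Myh11 (40.2 TPM). It also had 7 of 8 fibroblast markers, all but Tcf21, with Dcn at 5232 TPM and Lum at 2216 TPM, and Postn at a log2 value of 12.72. Its fibroblast markers summed to 10792 TPM, the lowest of the 24 compared scar cells, and its Col1a1 of 48.9 TPM was the lowest of all 43 cells. With 3177 genes its gene number lay inside the range of the detected cells. Whether the chamber held 1 or 2 cells was not tested. Rgs5, Vtn, Colec11 and Cyp4b1 were among the most abundant of the 127 genes above 5 TPM in this cell and in no compared Pdgfra-detected cell. Vtn was above 5 TPM in no other cell of the series.

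The other undetected cells with 3 smooth muscle markers had them from genes that myofibroblasts share or from Smtn. Cells 17 (Tcf21 capture) and 73 (scar capture) reached 3 smooth muscle markers with Tagln (10.78 and 7.30, log2), Acta2 (9.99 and 6.73) and Smtn (7.31 and 4.47), and had Myh11, Cnn1, Des, Lmod1 and Actg2 at 0. Acta2, the alpha smooth muscle actin gene, and Tagln are contractile genes of both cell types, and Acta2 stood on the myofibroblast list too. The detected cells 23, 30, 42 and 7 of the Tcf21 capture had the same 3 genes, with Actg2 (13.4 TPM) besides in cell 23 and Des (7.23 TPM) in cell 7, and Myh11, Cnn1 and Lmod1 at 0. Elsewhere among undetected cells, Cnn1 was above 5 TPM in cell 68 (5.30) and Lmod1 in cell 71 (5.43) of the scar capture, and Des in cell 26 of the Tcf21 capture (3.41). Cell 23 also had 3 pericyte markers (Cspg4, Notch3 and Rgs4), with Rgs5, Vtn and Kcnj8 at 0. Rgs4 had higher values in undetected cells of both captures, above 5 TPM in 6 of 9 against 4 of 10 cells (1.01) and in 4 of 10 against 2 of 14 (2.28, highest 11.35 in cell 86). Apart from cell 74, Rgs5 and Vtn were above 5 TPM in none of the 43 cells.

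Myeloid, endothelial, heart muscle and neural markers were rare in undetected cells. No undetected cell reached 3 markers of the endothelial, myeloid, cardiomyocyte, epicardial or mesothelial, Schwann or neural crest, or erythroid list (0 of 19 each, upper limit 17.6%). The table lacked some of their 8 genes, leaving 6 of the endothelial and of the Schwann or neural crest list, 7 of the cardiomyocyte and 4 of the erythroid list. The lymphoid list had only 2 genes in the table (Cd79a and Nkg7), so no cell could reach 3, and neither gene was above 5 TPM in an undetected cell. Pecam1 (CD31) was at 0 in all 43 cells and Ptprc (CD45) at 0 in all 19 undetected cells, which were sorted without these proteins. Among detected cells, cell 81 of the scar capture had 4 myeloid markers, the highest being Csf1r at 33.3 TPM, and cells 70 and 76 had 3 erythroid ones. Wt1, an epicardial transcription factor, was above 5 TPM in 3 of 10 undetected and 3 of 14 detected scar cells, with no other mesothelial marker in those undetected cells. The alpha-globin gene Hba-a2 was more frequent in undetected scar cells, with 8 of 10 (median 6.74, highest 13.03) against 5 of 14 (median 0.00, highest 10.24), while Hbb-bs was above 5 TPM in 2 of 10 and 5 of 14. Hba-a2 in the Tcf21 capture was above 5 TPM in 2 of 9 undetected cells and at 0 in all detected cells. Only Hba-a2 differed this way. The beta-globin genes Hbb-bs and Hbb-bt had lower means in undetected scar cells (-0.62 and -0.34) and were at 0 throughout the Tcf21 capture, and the source of the globin transcripts was not tested.

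**Figure D2:**
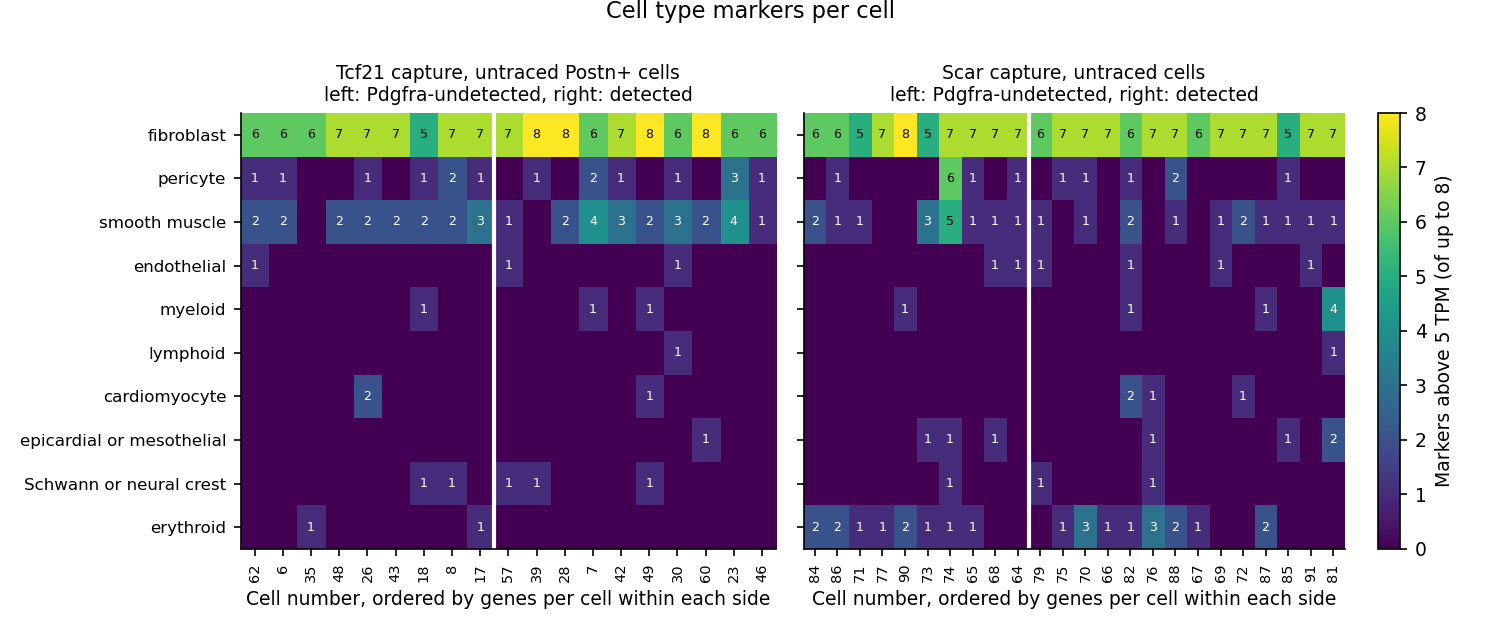
Number of markers above 5 TPM from each of 10 cell type lists (rows) in each compared cell (columns), with Pdgfra-undetected cells left of the white line in each capture. Every column has 5 or more fibroblast markers, and cell 74 of the scar capture is the only undetected cell with more than 3 of another list.

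Genes of quiescent fibroblasts were lower in Pdgfra-undetected cells. The list held 12 genes of resting cardiac fibroblasts, and all 12 were lower in undetected cells in both captures. Its median difference was -1.57 in the Tcf21 capture and -1.99 in the scar capture, beside medians of -0.43 and -0.67 over all genes tested. The median over all genes of the Tcf21 capture, -0.43, was -0.25 without cell 62, which had 1746 genes. Of the 12 genes, 4 and 6 were lower by more than 2 log2 units, where 9.96% and 15.2% of all genes tested were. The genes of the list were known from these data to be lower in Postn-traced cells, and Dcn, Lum and Dpt stood on the fibroblast list too, so the count is not independent evidence of its direction.

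C3, the central complement component, was 0.00 to 8.89 (median 3.86) in the undetected and 0.79 to 10.32 (median 6.76) in the detected cells of the Tcf21 capture, a difference of -2.57. C3 of scar cells was 0.00 to 7.94 (median 3.20) and 0.00 to 12.38 (median 7.79), a difference of -3.93. The groups overlapped in both captures. Serping1, the inhibitor of the first complement component, differed by -2.54 and -3.00, and was above 5 TPM in all 24 scar cells, at 3.86 to 13.48 (median 8.65) in undetected and 9.02 to 13.17 (median 12.08) in detected ones. Igfbp4, which binds insulin-like growth factors, differed by -2.60 and -1.65, the chemokine gene Cxcl12 by -2.34 and -1.83, and Gsn, the actin-severing protein gelsolin, by -1.76 and -2.34. Mgp, an inhibitor of calcification, the scavenger receptor gene Scara5 and Dcn differed least in the Tcf21 capture (-0.29, -0.28 and -0.06).

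Genes of Sca1-positive adventitial fibroblasts had lower values in undetected cells of the scar capture. There all 8 genes of the list were lower in undetected cells, 6 by more than 2 log2 units (15.2% of all genes tested were), and the median difference was -2.89, beside -0.67 over all genes. Ly6a, which encodes Sca1, was above 5 TPM in 5 of 10 undetected cells (median 2.66, highest 11.14) and 12 of 14 detected cells (median 10.72, highest 12.78), a difference of -4.92. Dpp4, a cell surface peptidase, was at 0 in all 10 undetected and above 5 TPM in 5 of 14 detected cells, and Pi16, a peptidase inhibitor of adventitial fibroblasts, differed by -2.96. The Tcf21 capture had 7 of the 8 genes lower, with a median of -0.53 beside -0.43 over all genes. Dpp4 was at 0 in all 19 cells of that capture, and the 7 genes tested had a median of -0.78. Cd34, a sialomucin of fibroblast progenitors, was the gene lower by more than 2 log2 units in both, at -3.04 and -3.86. Cd34 ran from 3.37 to 12.20 (median 10.35) in detected scar cells and from 0.00 to 11.37 (median 5.33) in undetected ones. The list median of the Tcf21 capture, -0.53, moved with single cells, to -1.16 without cell 35 (2546 genes) and -0.22 without cell 49 (4023 genes), and with the limit. With Pdgfra called detected above 1 TPM the medians were -2.79 and -2.84, beside -0.16 and -1.15 over all genes.

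Myofibroblast genes were not lower in undetected cells. Among its 14 genes, 9 were higher and 5 lower in undetected cells of the Tcf21 capture (median 0.22), and 10 higher and 4 lower in those of the scar capture (median 0.58). Over all genes tested the medians were -0.43 and -0.67. No gene of the list was more than 2 log2 units higher in the Tcf21 capture (2.38% of all genes tested were), and in the scar capture Eln (elastin, 2.34) and Postn (2.29) were (1.73% of all genes tested). Elastin was 0.00 to 12.93 (median 7.88) in undetected and 0.00 to 9.71 in detected scar cells, but differed by only 0.11 in the Tcf21 capture. Acta2 was above 5 TPM in 7 of 9 undetected and 4 of 10 detected cells of the Tcf21 capture (1.71) and in 3 of 10 and 4 of 14 of the scar capture (0.30). Ctgf, a matricellular growth factor, was higher by 1.62 and 0.77, and Mfap2, a microfibril protein, was lower by 1.87 and 1.68. With the 4 scar cells without Postn left out, an alternative chosen after seeing the data, the median of the scar capture was -0.02, beside -0.67 over all genes. With the 5 scar cells under 300 genes added it was -1.34, beside -1.52 over all genes. In the Tcf21 capture the list median was 0.00 without cell 18. The sign of the list median was thus not stable, but in both of these settings of the scar capture it lay above the median of all genes.

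**Figure D3:**
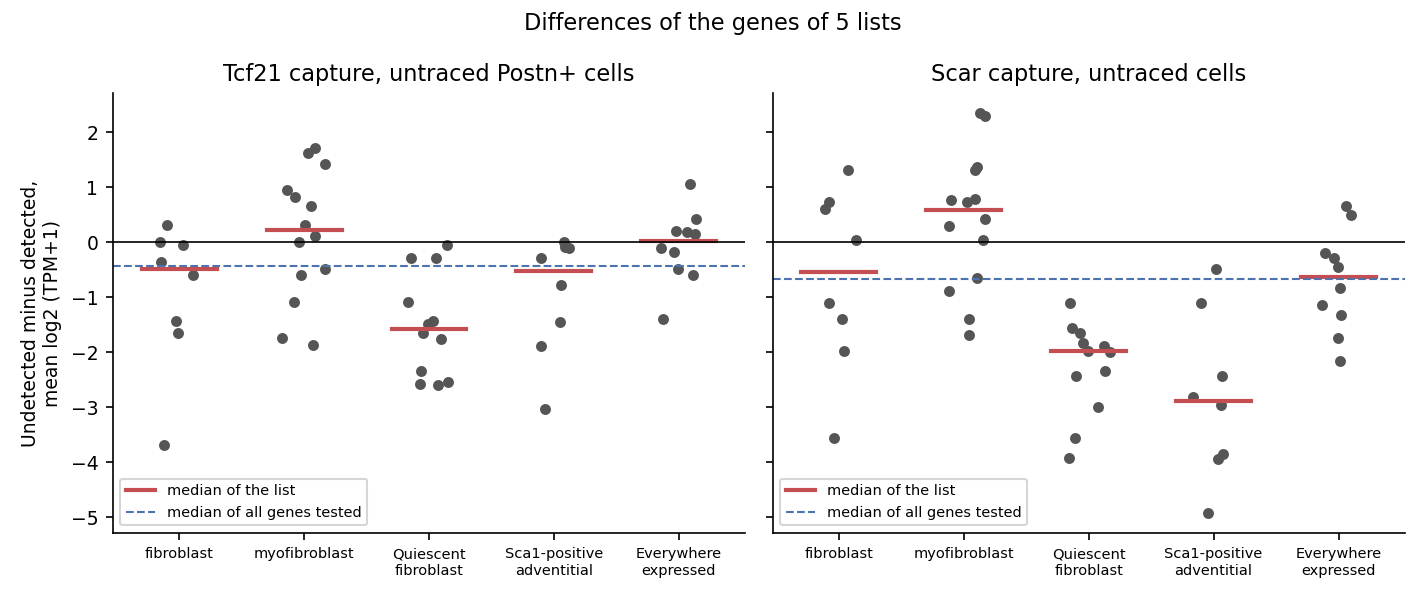
Difference between Pdgfra-undetected and Pdgfra-detected cells, in mean log2 (TPM+1), for each gene of 5 lists in the 2 captures, with the median of the list (red) and of all genes tested (dashed). All 12 genes of the quiescent fibroblast list lie below 0 in both captures, and the myofibroblast list has medians of 0.22 and 0.58.

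Other receptors and ligands of the PDGF pathway did not follow Pdgfra. Pdgfrb, the beta receptor, was above 5 TPM in 9 of 9 undetected and 9 of 10 detected cells of the Tcf21 capture (difference -0.33) and in 5 of 10 and 8 of 14 of the scar capture (0.23). Pdgfrl, a receptor-like protein, was higher by 2.55 in the undetected cells of the Tcf21 capture, with 7 of 9 against 3 of 10 cells above 5 TPM, and differed by -0.20 in the scar capture. The list also held Plat and Plau, which are neither receptors nor ligands. Of 7 pathway genes in the table, these included, 3 were higher and 4 lower in each capture, with medians of -0.28 and -0.18. Over the 4 and 3 genes tested, Plat among them, the medians were -0.82 and -0.20, beside -0.43 and -0.67 over all genes tested. Of the ligands, Pdgfa differed by -1.43 and 1.57, with at most 4 cells of a group above 5 TPM.

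By their medians, none of the remaining lists was lower than all genes in both captures. The 10 fibroblast transcription factors had medians of -0.35 and -0.13, and -1.06 and -0.14 over the 8 and 7 of them tested. In the Tcf21 capture Tcf21, Tbx20 (-2.36) and Gata4 (-2.12) were lower by more than 2 log2 units, as were 9.96% of all genes tested. Genes expressed in every cell type had medians of 0.02 and -0.64, immediate early genes -0.33 and -0.39, and cell cycle genes -0.28 and -0.12. Over the 6 and 1 cell cycle genes tested the medians were -0.71 and -0.52. Mki67, a marker of proliferating cells, was above 5 TPM in 2 of 9 undetected and 2 of 10 detected cells of the Tcf21 capture and in 0 of 10 and 1 of 14 of the scar capture. The cartilage and late scar genes had medians of -0.29 and 0.17, and -1.84 and 1.20 over the 2 and 3 of them tested. Among them Sox9, a cartilage transcription factor, differed by -2.78 in the Tcf21 capture and Comp, a cartilage matrix protein, by 2.54 in the scar capture. Xist, transcribed from the inactive X chromosome of females, was above 5 TPM in 5 of 9 undetected and 7 of 10 detected cells of the Tcf21 capture, and Y-linked genes in 2 of 9 and 3 of 10, with 0 cells holding both. Cells of both sexes were thus in both groups. In the scar capture Xist was above 5 TPM in 8 of 10 and 10 of 14 cells and Y-linked genes in 0.

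Over all genes, lower values in undetected cells outnumbered higher ones. Of 6294 genes tested in the Tcf21 capture, 627 were lower by more than 2 log2 units (9.96%) and 150 higher (2.38%). Of 5597 genes tested in the scar capture, 851 were lower (15.2%) and 97 higher (1.73%). The number of genes per cell was also lower in undetected cells, and how far it set the excess of lower values was not tested. Centring each cell on the median of its genes above 5 TPM moved the median of all genes of the scar capture from -0.67 to -0.51 and that of the Tcf21 capture from -0.43 to -0.46. The excess stayed, with 709 lower and 131 higher genes in the scar capture and 648 and 143 in the Tcf21 capture.

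A minority of these genes was shared by the captures. Of 4765 genes tested in both, 138 were lower in both by more than 2 log2 units (2.9%), which was 25.1% of those lower in the Tcf21 capture and 17.2% of those lower in the scar capture. Among all genes tested in both, 16.8% were lower in the scar capture and 11.5% in the Tcf21 capture, so the shared shares were above these. Only 4 were higher in both (0.0839%), or 3.77% and 4.94% of those higher in the Tcf21 and the scar capture, beside 1.7% and 2.22% of all genes tested in both, and 17 went opposite ways. Across genes, which are not independent, Spearman's rho of the differences was 0.15.

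Of the 4 genes higher in both captures, Ptn had the largest values. It encodes pleiotrophin, a secreted heparin-binding growth factor. In the Tcf21 capture Ptn was above 5 TPM in 8 of 9 undetected (0.00 to 10.76, median 8.26) and 3 of 10 detected cells (0.00 to 9.98, median 0.00), a difference of 4.89. It was above 5 TPM in 7 of 10 scar cells without Pdgfra (0.00 to 14.60, median 7.34) and 3 of 14 with it (0.00 to 13.85, median 0.00), a difference of 4.61. Most undetected cells had it and most detected cells did not, although the ranges overlapped. Its difference fell to 0.64 in the scar capture without the undetected cells of fewest genes. With any Pdgfra value above 0 called detected it was 0.85 in the Tcf21 capture (both given below). The other 3 genes were Ogt (2.95 and 2.91), the enzyme that adds O-GlcNAc to proteins, Ddah1 (3.03 and 2.76), which degrades an inhibitor of nitric oxide synthase, and Pisd-ps3 (2.23 and 3.04), a pseudogene whose reads may be shared with near-identical copies. Without detected cell 46 of the Tcf21 capture 7 genes were higher in both.

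The 10 genes lowest in both captures were of mixed function. Rarres2, which encodes the secreted protein chemerin, was above 5 TPM in 6 of 9 undetected and all 10 detected cells of the Tcf21 capture (medians 3.90 and 9.04, difference -4.25) and in 5 of 10 and all 14 of the scar capture (medians 4.18 and 9.53, difference -4.12). Fbln1, the matrix glycoprotein fibulin 1, was above 5 TPM in 4 of 9 and 9 of 10 cells (medians 1.19 and 6.65, difference -3.19) and in 6 of 10 and 14 of 14 (medians 6.43 and 9.20, difference -3.51). Hsd3b7, an enzyme of bile acid synthesis, was at 0 in all 9 undetected cells of the Tcf21 capture and above 5 TPM in 5 of 10 detected cells, and in 1 of 10 and 9 of 14 of the scar capture. Ifi205, an interferon-inducible gene, differed by -3.02 and -4.18, and Ppap2a, a lipid phosphate phosphatase, by -3.16 and -4.04. The others were the tubulin gene Tubb6 (-3.64 and -3.79), Smim14 (-3.19 and -4.34), the respiratory chain gene Ndufv2 (-3.27 and -3.11), Jtb (-3.10 and -3.57) and Cd34.

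Genes with the largest difference in 1 capture mostly differed less in the other. They were chosen as the extremes of 1 capture, so smaller values in the other do not by themselves show a difference between captures. In the Tcf21 capture the lowest values were those of Rab2a (-6.20), a GTPase of vesicle transport, Tppp3 (-5.73), Coa3 (-5.50), Efemp2 (-4.93) and Eapp (-4.83), and in the scar capture these had -0.33, -1.94, -1.41, -0.94 and 1.11. After Ptn the highest were Col11a1 (4.69), a chain of type XI collagen, Fkbp2 (4.24), BC092382 (3.97) and Spon1 (3.33), against 0.30, -0.08, 0.47 and -1.86. Col11a1 was above 5 TPM in 7 of 9 undetected and 1 of 10 detected cells of the Tcf21 capture. In the scar capture Pdia6 (-6.14) and Bcap31 (-5.86), both of the endoplasmic reticulum, Tnfaip6 (-5.42), a hyaluronan-binding protein, Ak1 (-5.22) and 4933434E20Rik (-5.03) were lowest, against 0.36, -1.28, -0.12, -1.56 and -0.77 in the Tcf21 capture. The highest there were AK204572 (5.80), Ptn, Hba-a2 (3.84), Gon4l (3.70) and AK190531 (3.56), against 1.76, 1.14, -2.84 and 1.03 for those other than Ptn.

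**Figure D4:**
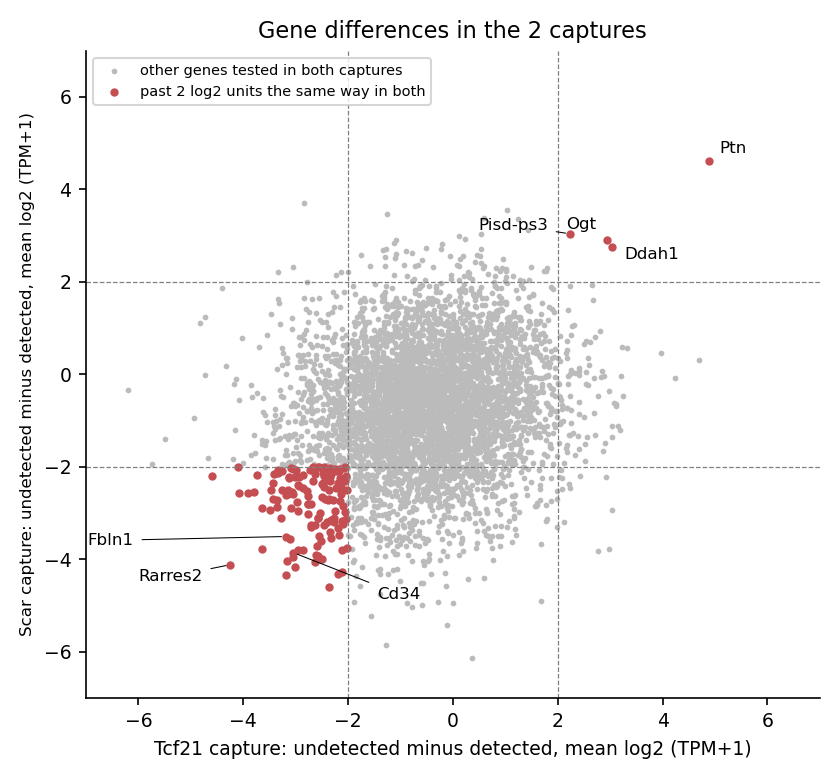
Difference between Pdgfra-undetected and Pdgfra-detected cells, in mean log2 (TPM+1), of 4765 genes in the Tcf21 capture (x axis) and the scar capture (y axis), with the genes past 2 log2 units the same way in both in red. There are 138 red genes at the lower left and 4 at the upper right, with Ptn farthest out.

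The differences were taken again without the 3 and 5 undetected cells that had fewer genes than every detected cell, a choice made after seeing the data. The 6 and 5 undetected cells left differed from detected cells by -100.5 and 275 in the median of genes per cell, and the medians of all genes tested were -0.04 and -0.05. The excess of lower genes was then small, with 466 lower and 409 higher in the Tcf21 capture and 497 and 480 in the scar capture, and 50 lower and 39 higher in both. Of the 138 genes, 32 stayed lower in both by more than 2 log2 units, and of the 4 higher genes 2 stayed (Ogt and Ddah1). The quiescent fibroblast list kept its medians, at -1.61 (11 of 12 lower) and -1.91 (12 of 12 lower), and the adventitial list had -0.80 and -3.52. The fibroblast list was at -0.29 and -0.15 and the myofibroblast list at 0.42 and 0.44. Cd34 (-2.63 and -3.90), Fbln1 (-3.29 and -4.97), Hsd3b7 (-3.04 and -3.47), Jtb (-3.10 and -3.86), Ifi205 (-2.15 and -5.09) and Ppap2a (-2.87 and -3.07) stayed past 2 log2 units in both captures. Rarres2 (-3.31 and -1.32), Tubb6 (-1.78 and -3.61), Smim14 (-2.05 and -1.73) and Ndufv2 (-2.81 and -1.23) did not. Ptn was 5.86 higher in the Tcf21 capture and only 0.64 higher in the scar capture. The scar cells left out had Pdgfra at 0 to 0.539 TPM, while cells 64, 65 and 68 among those kept had 2.53 to 4.78 TPM. Gene number and Pdgfra thus changed together, and which of them moved Ptn was not tested.

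The named genes depended on the Pdgfra limit too. With Pdgfra called detected above 1 TPM, 46 of the 138 lower genes and 1 of the 4 higher genes stayed past 2 log2 units in both captures, and with any value above 0, 51 and 0 did. At the latter limit Ptn differed by 0.85 and 4.41, Ogt by 0.10 and 1.03, Ddah1 by 3.83 and 0.70, and Pisd-ps3 by 1.84 and 2.65, so none of the 4 held in both captures. Rarres2, Fbln1, Ppap2a, Jtb, Hsd3b7, Cd34 and Ifi205 were lower by more than 2 log2 units in both captures at either limit.

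The size of the quiescent difference also depended on where the Pdgfra limit stood. With 1 TPM as the limit the median of the Tcf21 capture was -1.02 (9 of 12 genes lower), and all 12 genes were lower in the scar capture. With any value above 0 taken as detected, 4 and 6 cells were undetected. The median of the quiescent list was then -0.89 in the Tcf21 capture and -2.21 in the scar capture, beside -0.30 and -1.22 over all genes. The adventitial list then had -2.86 and -4.22. Without cell 74, the cell with pericyte markers, the quiescent list of the scar capture had -2.48 (all 12 genes lower), beside -0.74 over all genes.

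Likeness to the detected cells went with genes per cell. The likeness of a cell was taken as Spearman's rho over the genes tested with the mean of the detected cells (the cell itself left out). In the Tcf21 capture it was 0.23 to 0.52 (median 0.46) in undetected and 0.33 to 0.53 (median 0.47) in detected cells. Among scar cells it was 0.20 to 0.52 (median 0.37) and 0.42 to 0.50 (median 0.45), and 5 undetected cells lay below every detected one. The difference of these medians was -0.08, but -0.02 without cell 77 (0.32) and -0.13 without cell 64 (0.52). Likeness and genes per cell had a rho of 0.76 (n = 19 cells) and 0.89 (n = 24 cells). Missing genes enter the likeness itself, so it cannot be told apart from gene number. Cell 73 of the scar capture had 0.21 with 2755 genes, although detected cells with 2558 and 2635 genes had 0.43 and 0.42. It held 5 fibroblast markers with Col1a1 at 12.02 and Dcn at 12.22, had Lum and Dpt at 0, and its own most abundant genes included Prdm6 at 905 TPM, which was above 5 TPM in no other cell of the series.

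A measure added after seeing the data asked how many abundant genes were missing. Of the genes above 5 TPM in every detected cell (551 in the Tcf21 capture and 362 in the scar capture), undetected cells had 56.4% to 99.1% (median 93.8%) and 58.8% to 99.7% (median 91.4%). The same share in detected cells, against the other detected cells, was 84.3% to 98.7% (median 95.8%) and 91% to 99.5% (median 95.9%). Cell 62 of the Tcf21 capture and cell 71 of the scar capture, with 1746 and 1801 genes, missed the most.

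**Figure D5:**
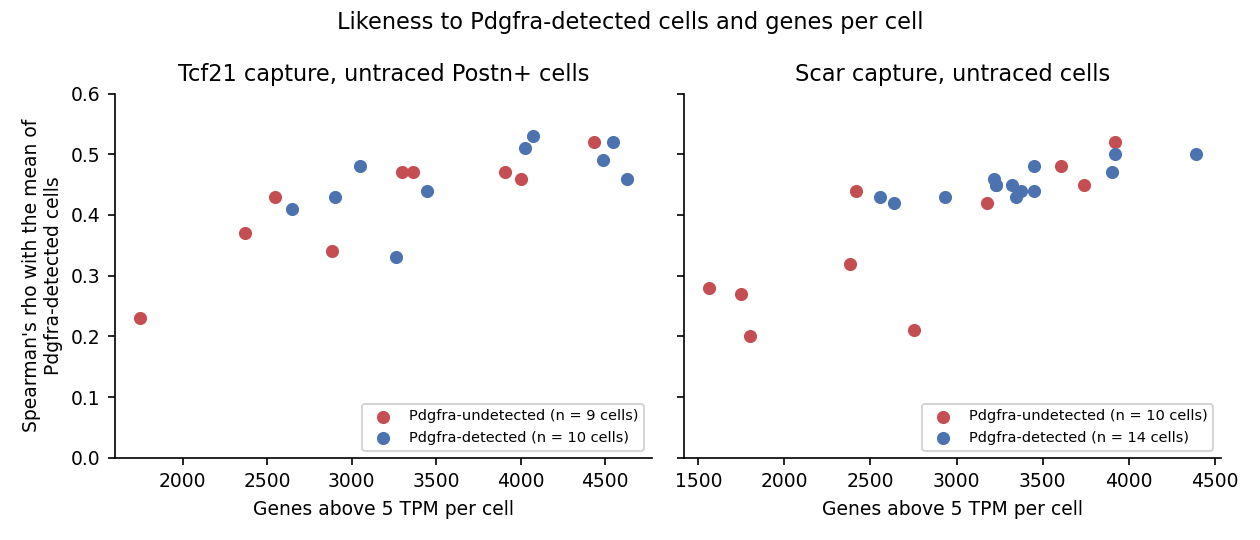
Spearman's rho of each compared cell with the mean of the Pdgfra-detected cells of its capture, against its number of genes above 5 TPM. The lowest values, 0.23 and 0.20, are those of cells with 1746 and 1801 genes.

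Among the compared cells, no gene found only in undetected cells was common to most undetected cells. Each had 43 to 142 genes above 5 TPM that were so in no compared Pdgfra-detected cell of either capture. Of 1224 such genes, 928 were above 5 TPM in 1 undetected cell, and the most frequent (Tro, the gene of the adhesion protein trophinin) in 6 of 19. Cells outside the comparison had some of these genes too, Tro being above 5 TPM in 19 cells of the series and Sharpin in 30. No matching count for detected cells is given, so the numbers show no excess in undetected cells. The 5 most abundant of each cell seldom recurred. FW313050 was among these 5 in cells 77, 84 and 86 of the scar capture and cell 48 of the Tcf21 capture, Sergef in cells 35 and 68, and AK145379 in cells 17 and 6. The highest was AK197603 at 19378 TPM in cell 62 of the Tcf21 capture, followed by Tcap, a sarcomere protein of muscle, at 7589 TPM in the same cell, which had 0 of the 7 cardiomyocyte markers in the table. Cell 6 of that capture had Adipoq, which encodes the adipocyte hormone adiponectin, at 1594 TPM, above 5 TPM in no other cell of the series. In the scar capture Inha, a subunit of inhibin, reached 4715 TPM in cell 71 and the muscle enolase gene Eno3 3887 TPM in cell 84.

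Lineage-traced and Postn-negative infarct cells had lower shares without Pdgfra, a difference that was not tested. Pdgfra was not above 5 TPM in 5 of 44 Tcf21-traced cells (11.4%, interval 3.79% to 24.6%), 3 of 27 Postn-traced cells (11.1%, interval 2.35% to 29.2%) and 3 of 24 Postn-negative infarct cells (12.5%, interval 2.66% to 32.4%). The Tcf21-traced cells shared the capture of the 19 untraced ones. Other periostin-positive cells not labelled traced had high shares without Pdgfra, with 3 of 6 in the capture of the Postn-traced cells (50%, interval 11.8% to 88.2%) and 2 of 3 in the scar capture (66.7%, interval 9.43% to 99.2%). All 11 of these traced or Postn-negative cells without Pdgfra had at least 3 fibroblast markers. Their median gene numbers were 2611, 3500 and 2332, beside 3387, 3644 and 2345 in cells with Pdgfra. The quiescent list had a median difference of -1.12 in Tcf21-traced cells and -0.85 in Postn-traced cells, as in the untraced cells below the median of all genes (-0.52 and -0.24), but 0.18 in Postn-negative cells. C3 differed by -5.10, -5.60 and -1.01. The adventitial list had -0.83, -0.77 and -1.65, beside -0.52, -0.24 and -0.24 over all genes. The myofibroblast list had 0.61, -0.44 and -0.24, and Ptn 1.41, 1.16 and 2.49. Besides Ptn, 13 of the genes named as shared were looked at, and 9 of them did not keep their direction in all 3 classes. Ogt had -2.77, 2.76 and 1.83, Ddah1 -1.83, 4.26 and -0.10, and Rarres2 0.30, 0.08 and 0.17. Cd34 had 0.28, -2.44 and 0.05, and Fbln1 -3.13, -4.14 and 2.18. Of the 10 lowest genes, Tubb6 (-3.46, -0.76 and -7.24), Ifi205 (-1.92, -1.35 and -5.06), Smim14 (-0.86, -3.17 and -0.84) and Ndufv2 (-0.41, -3.80 and -0.27) were lower in all 3.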

How the data were processed

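The authors deposited log2 (TPM+1) values of 17171 genes in 185 cells. The submitters' processing notes name Bowtie 1.0.0, eXpress 1.5.1 and build mm10. Converted back to TPM, each cell summed to between 999257 and 1000000. 3 columns without a sample were not used. Members and lists were chosen with earlier results of these data known. A gene was tested when above 5 TPM in at least 20% of the compared cells of a capture. A difference is the mean log2 (TPM+1) of undetected minus that of detected cells, with the deposited pseudocount of 1, and genes are counted past 2 log2 units. No p-value was computed. Alternatives changed 1 choice at a time, among them the TPM limits, the pseudocount, medians, centring, the filter on genes and the cells compared. The 10 marker lists (80 genes, 15 not in the table) and 10 other lists (myofibroblast, quiescent fibroblast, Sca1-positive adventitial, fibroblast transcription factors, PDGF pathway, cartilage and late scar, cell cycle, immediate early, everywhere expressed, sex; 2 genes not in the table) are given in the results. Named genes were those of the lists, the 10 largest differences shared by both captures in each direction, the 5 largest in each direction per capture, and the 5 most abundant genes of each undetected cell that no detected cell had. A withheld gene is not reported here. Values were computed in Python 3.11.15 with pandas 2.3.3, SciPy 1.17.1 and NumPy 2.4.6, and drawn with Matplotlib 3.10.9. The comparison was tested on simulated data, and no result given here rests on that.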

Additional observations from a re-analysis of the deposited data

Results flagged for a closer look

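The undetected cells of both captures and the detected cells of the Tcf21 capture were looked at. Of their 30 groups and measures, 4 had a cell far from the others, by the gap to the nearest cell relative to the whole range. All 4 were in undetected cells. By its design the rule picks about 1 in 20 groups by chance, a rate that was not tested for sums that are mostly 0. In the scar capture cell 74 had a summed log2 (TPM+1) of 46.76 over the pericyte list, where the nearest undetected cell had 11.35, and of 38.84 over the smooth muscle list, where the nearest had 18.51. Over the myeloid list cell 18 of the Tcf21 capture had 6.71, all from Lyz2, and the other undetected cells 0.00, so that 1 cell above 0 was enough to stand out. Cell 90 of the scar capture had 5.76 over that list, also from Lyz2, and the nearest 1.95.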

How the results depend on the processing

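The values rest on 19 undetected cells from 2 captures, no label gives the mouse, and genes per cell only stand in for depth. The quiescent fibroblast list stayed below 0 under 9 alternatives in the Tcf21 capture (-1.71 to -0.89) and 13 in the scar capture (-3.10 to -1.72), and the fibroblast list likewise (-0.98 to -0.29 and -1.94 to -0.15). Under the same alternatives the median of all genes tested ran from -0.73 to 0.00 and from -1.52 to 0.00. The quiescent list lay below that median under each, and the fibroblast list on either side of it. With a pseudocount of 0.1 the fibroblast list had -0.56 and -0.54, beside -0.73 and -1.07 over all genes. With medians over cells it had -0.98 and -0.38, beside 0.00 in both captures. The myofibroblast list was above 0 under 9 of 9 (0.02 to 0.49) and 11 of 13 (-1.34 to 0.78), and above the median of all genes under each. The difference in genes per cell changed sign, reaching 8.5 in the Tcf21 capture and 275 in the scar capture. Counts of genes past 2 log2 units moved as well. The causes were not tested beyond the changes of setting given here.

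With Pdgfra detected above 1 TPM, 5 undetected cells of the Tcf21 capture remained, all with 3 fibroblast markers, genes past 2 log2 units were 451 higher in the Tcf21 capture, 1563 lower in the scar capture and 11 higher in both, and 0% of Postn-negative cells lacked Pdgfra. With any value above 0, 4 and 6 undetected cells had 3 fibroblast markers, 483 and 149 genes were higher, 1662 lower in the scar capture, and 11 higher and 260 lower in both. At that limit 2.27% of Tcf21-traced and 0% of Postn-negative cells lacked Pdgfra. Of the Postn-traced cells 7.41% lacked it at 1 TPM and 3.7% at any value above 0. With other genes detected above 1 TPM, 2 undetected cells of the Tcf21 capture had 3 markers of another type. A pseudocount of 0.1 gave 410 higher and 1482 lower genes in the Tcf21 capture, 276 and 1701 in the scar capture and 22 and 455 in both, and a pseudocount of 5 gave 38 and 185, 26 and 315, and 2 and 23. Medians over cells gave 393 and 1139, 236 and 1320, and 24 and 400. Without a filter on genes 9 were higher in both. With all 29 untraced scar cells 5 genes were higher and 1720 lower there, and 1 higher and 259 lower in both.

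The alternatives chosen after seeing the data were leaving out cell 74, which left 1 undetected scar cell with markers of another type, leaving out scar cells without Postn, and leaving out undetected cells with fewer genes than every detected cell. The last gave 409 higher genes in the Tcf21 capture, 480 higher and 497 lower in the scar capture, 39 higher and 50 lower in both, a difference of 275 in genes per cell and 5 undetected cells with 3 fibroblast markers in the scar capture. Leaving out 1 cell at a time gave 0 to 1 undetected cells with markers of another type in the Tcf21 capture, 1 to 2 in the scar capture, and 4 to 7 genes higher in both. It moved the fibroblast list between -0.74 (without cell 48) and -0.31 (without cell 39) in the Tcf21 capture and between -0.74 (without cell 65) and -0.33 (without cell 71) in the scar capture, and the myofibroblast list between 0.00 (without cell 18) and 0.42 (without cell 26) and between 0.25 (without cell 73) and 0.75 (without cell 82).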
